A study of Mus musculus with 10 samples.

Results

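Neurog1, Sox1, Sox3, Pax6, Nes, Zic1, Zic2 and Tubb3 are genes of the early neural ectoderm and of the neurons that come from it. They were followed by gene symbol through the 3 expression tables of the study and through its 3 lists of RAD23B regions, taking every region in the listed locus or within 5 kb of it. The tables named 7 of the 8 genes, out of 36586 genes in all. Sox1, a SOX factor of committed neural progenitors, had no row under that symbol and is not analysed here.

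The study used 10 libraries from mouse embryonic stem cells. RNA was sequenced once each from 4 groups of the JM8.N4 line, a feeder-independent line from C57BL/6N embryos: Rad23b-/- cells, Rad23b-/-Xpc KD1 cells, Rad23b-/-Xpc KD2 cells and wild-type cells. KD1 and KD2 are independent short hairpins that knock down Xpc in cells that also lack Rad23b, so both knockdowns carry the Rad23b-/- genotype, and no library had the Xpc knockdown alone. RAD23B was mapped by chromatin immunoprecipitation and sequencing with an affinity-purified guinea pig antibody in wild-type cells of the D3 line (2 libraries, called replicates 1 and 2), each set against normal guinea pig IgG (2 libraries), and in Xpc-/- cells, for which no line is named (1 library of RAD23B and 1 of IgG). Binding and expression were thus measured in different lines. The sources used here do not say how the Rad23b and Xpc alleles were made, whether a mutant line was 1 clone, or whether the replicates came from separate cultures.

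RAD23B, XPC and CETN2 together find DNA lesions and open nucleotide excision repair. In embryonic stem cells the same 3-protein complex is known as a coactivator for OCT4 and SOX2, the factors that hold these cells pluripotent. Neural ectoderm forms when pluripotent cells lose that state: SOX and ZIC factors and PAX6 mark the progenitors, nestin fills their cytoskeleton, the proneural factor neurogenin 1 starts neuronal differentiation, and beta-III tubulin appears in newborn neurons. Undifferentiated stem cells are known to carry some of these transcripts at low level.

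Neurog1 was the member that stood apart: it was much lower in all 3 mutant libraries, and a weak RAD23B region lay over its start in wild-type cells. Nes held the strongest region among members on coordinates of their own. Its RNA was above wild type in Rad23b-/- cells and below it in both knockdowns, each time short of 2-fold. The 300-base promoters of these genes (250 bases before the RefSeq start and 50 from it, strand of the gene, RefSeq, GRCm38.p6) are shown because the RAD23B regions over their starts are the ones set against RNA below. Capitals mark matches on either strand to the octamer ATGCAAAT, a site of POU factors such as OCT4, to the SOX core CATTGTT, to the GC box GGGCGG and to the CCAAT box CCAAT. None of these marked matches overlap.
Neurog1 (GRCm38.p6 chr13:56252131-56252430, minus strand): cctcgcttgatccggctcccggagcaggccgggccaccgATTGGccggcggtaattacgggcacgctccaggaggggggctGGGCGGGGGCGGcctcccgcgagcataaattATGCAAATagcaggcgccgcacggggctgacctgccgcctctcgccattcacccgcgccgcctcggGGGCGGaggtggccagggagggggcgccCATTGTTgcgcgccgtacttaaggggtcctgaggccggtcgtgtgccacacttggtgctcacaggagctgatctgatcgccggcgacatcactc
Nes (GRCm38.p6 chr3:87970843-87971142, plus strand): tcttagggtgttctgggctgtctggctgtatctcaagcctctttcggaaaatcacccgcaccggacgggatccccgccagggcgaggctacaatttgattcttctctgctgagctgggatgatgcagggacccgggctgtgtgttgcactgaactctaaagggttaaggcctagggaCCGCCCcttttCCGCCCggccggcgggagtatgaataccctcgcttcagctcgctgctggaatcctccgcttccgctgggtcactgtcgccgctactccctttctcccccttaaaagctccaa

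The Neurog1 promoter held 1 octamer at -138 to -131 and 1 SOX core at -44 to -38, counted from the start, whose base is 0. The octamer and the SOX core do not adjoin. It also held 3 GC boxes, 1 CCAAT box and 1 E-box (CANNTG), the last not capitalised. Of 32851 mouse promoters of the same length, 1.74% held the octamer, 3.78% the SOX core and 0.0974% both, which was 32 promoters. The GC box was in 35.7%, the CCAAT box in 37.4% and the E-box in 72.3%. The Neurog1 promoter was 69.3% G and C with 32 CpG dinucleotides, against medians of 52.7% and 7 over all promoters. The Nes promoter held 2 GC boxes and no other marked motif, with 58.7% G and C and 18 CpG dinucleotides. Of the 6 members with a promoter in the table (7 promoters, since Pax6 has 2), Neurog1 and Sox1 held the octamer, and Neurog1 alone held the SOX core. A match is a description of the letters, and binding of OCT4 or SOX2 at Neurog1 was not tested. The RefSeq starts are in a later build than the files, whose coordinates are mm9, and were not set against them.

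The targeted genes followed their labels. Rad23b was at 43.9, 35.8 and 52.5 RPKM (reads scaled to transcript length and to library size) in Rad23b-/-, KD1 and KD2 cells, against 229 RPKM in wild-type cells. Xpc was at 8.34 RPKM in Rad23b-/- cells, 0.915 in KD1 and 0.895 in KD2, against 8.73 in wild type. Each mutant has 1 library and all 3 were set against the same wild-type library, so the comparisons share it, and no difference between groups could be tested against replicates. Read totals of these libraries are unknown. The commonest step between values under 0.1 RPKM would put the mutant libraries at 1.29, 1.23 and 1.26 times the wild-type depth. That step was seen in 101 of 2256, 175 of 2345 and 117 of 2279 such genes. It assumes equal read counts in both libraries, so it is a rough guide only. As a gauge of scatter, the log2 ratio of KD2 over KD1 was taken for 14832 genes. Its middle 68% reached 0.22 to each side of the centre of that range, and 3.378% of the genes differed by at least 2-fold. The RAD23B lists came from 109.3 M reads (59768 regions), 62.53 M reads (42364 regions) and 145.1 M reads (828 regions, Xpc-/-). In RNA, OCT4 (Pou5f1) stayed at 1152, 1468 and 1431 RPKM in the mutants, against 1603 in wild type. Fold limits here and below are on the scale of RPKM + 1, for genes that reached 1 RPKM in the mutant or the wild-type library. Nanog, Esrrb and Klf4 (3 of 8 stem cell markers) were at least 2-fold lower in every mutant, with Nanog at 197.5, 242.7 and 209.3 against 512.2 RPKM. Of all genes 4.61%, 3.4% and 3.6% were that much lower in Rad23b-/-, KD1 and KD2 cells. No other marker of the 8 was 2-fold lower or higher in any mutant. Of 5 trophectoderm markers Hand1 was past that limit in every mutant (3.31, 3.48 and 1.70 RPKM, against 0.33 in wild type). Cdx2 (0.65, 0.60 and 0.75 RPKM in the mutants, against 0.10 in wild type) and Gata3 (0.70, 1.36 and 1.05 against 0.30) were low but also above wild type. The 5 summed to 53.7, 44.9 and 26.4 RPKM in the mutants and 40.5 in wild type, most of it Krt8 and Krt18. Fibroblast and feeder markers summed to 2.84, 2.14 and 2.12 RPKM over 9 genes in the mutants and 1.997 in wild type, and Postn had the value of exactly 1 that was read as 0 in all 4. In bulk RNA, fewer cells that express a gene and less RNA per cell cannot be told apart.

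**Figure D1:**
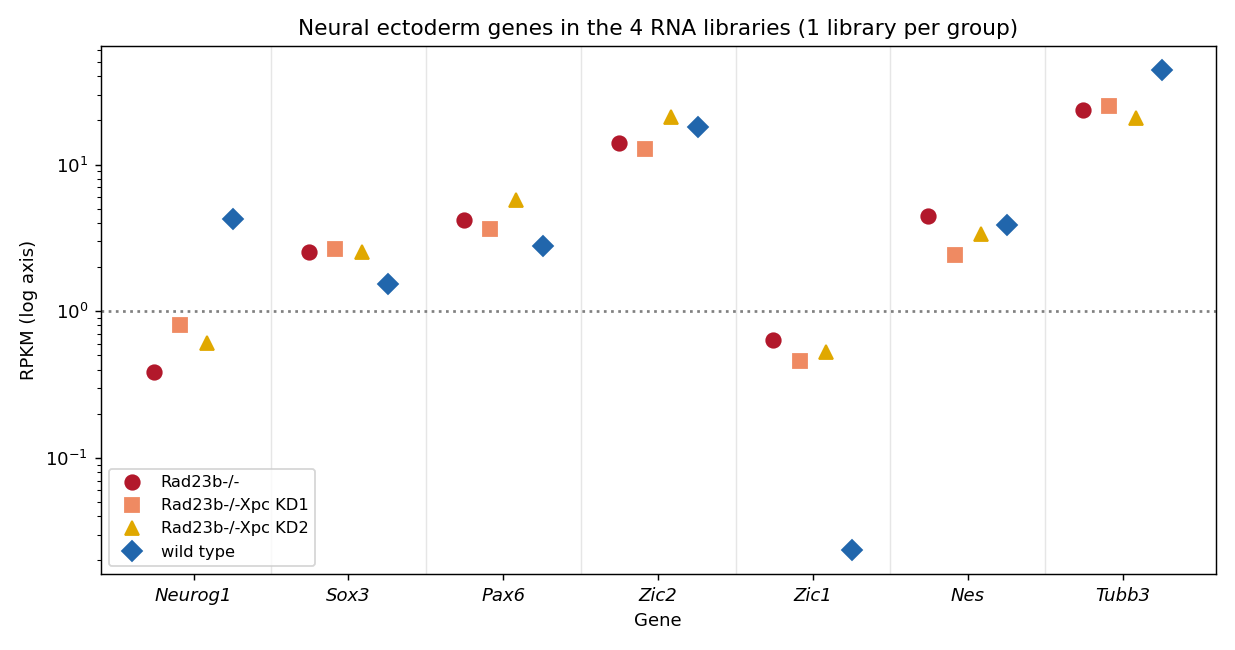
RPKM (log axis) of the 7 neural ectoderm genes in the tables, with 1 point per library: Rad23b-/- (circle), Rad23b-/-Xpc KD1 (square), Rad23b-/-Xpc KD2 (triangle) and wild type (diamond), and a dotted line at 1 RPKM. Neurog1 lies below 1 RPKM in the mutants and at 4.24 RPKM in wild type, and Tubb3 between 20.9 and 25.1 RPKM in the mutants and at 44.2 RPKM in wild type.

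In wild-type cells the 7 genes ranged from nearly silent to well expressed. Tubb3 was highest at 44.2 RPKM, above 86.0% of the genes with a value above 0. Zic2 came next at 17.9 RPKM (73.4%). Neurog1 at 4.24 RPKM (53.4%) and Nes at 3.90 RPKM (52.5%) lay near the middle, followed by Pax6 at 2.78 RPKM (48.7%) and Sox3 at 1.52 RPKM (42.6%). Zic1 was almost silent at 0.0234 RPKM (8.11%). With 1 library there is no spread between replicates, so Neurog1 and Nes cannot be ordered.

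Neurog1 (ENSMUSG00000048904; mm9 chr13:56351865-56353524, minus strand) encodes the basic helix-loop-helix factor that commits progenitors to a neuronal fate. It was at 0.382 RPKM in Rad23b-/- cells, 0.799 RPKM in KD1 cells and 0.603 RPKM in KD2 cells, against 4.24 RPKM in wild-type cells. The mutant values were 9.01%, 19.4% and 14.5% of the wild-type value in the same table, and all 3 mutants lay below 1 RPKM. On the log2 scale of RPKM + 1, which understates the change of low genes, the ratios were -1.92, -1.51 and -1.69. Those ratios ranked at the 0.971, 1.32 and 1.08 percentile of all genes. In the authors' deposited table its p-values were 0, 0.003 and 0.001, which rest on no replicates. The knockdowns differed from each other by -0.17 (KD2 over KD1). The scatter given above leaves out genes under 1 RPKM in both knockdowns, such as Neurog1, so it is no gauge of this difference.

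Changes were counted at 2-fold or more on that scale, and 6 of the 7 members passed its filter in every comparison. In Rad23b-/- cells 1 of the 6, Neurog1, was lower and 0 were higher, beside 4.61% and 4.74% of all 15040 genes. In KD1 cells the count was again 1 lower (Neurog1) and 0 higher, beside 3.4% and 3.95% of 14821 genes. In KD2 cells 2 were lower, Neurog1 and Tubb3, and 0 higher, beside 3.6% and 3.93% of 14877 genes. Neurog1 was thus the 1 member counted in all 3 libraries. The members' median ratio was -0.09 in Rad23b-/-, -0.46 in KD1 and 0.05 in KD2 cells, beside medians of -0.16, -0.14 and -0.14 over all genes. They did not move as a block: some lay above the median of all genes and some below it in each mutant.

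**Figure D2:**
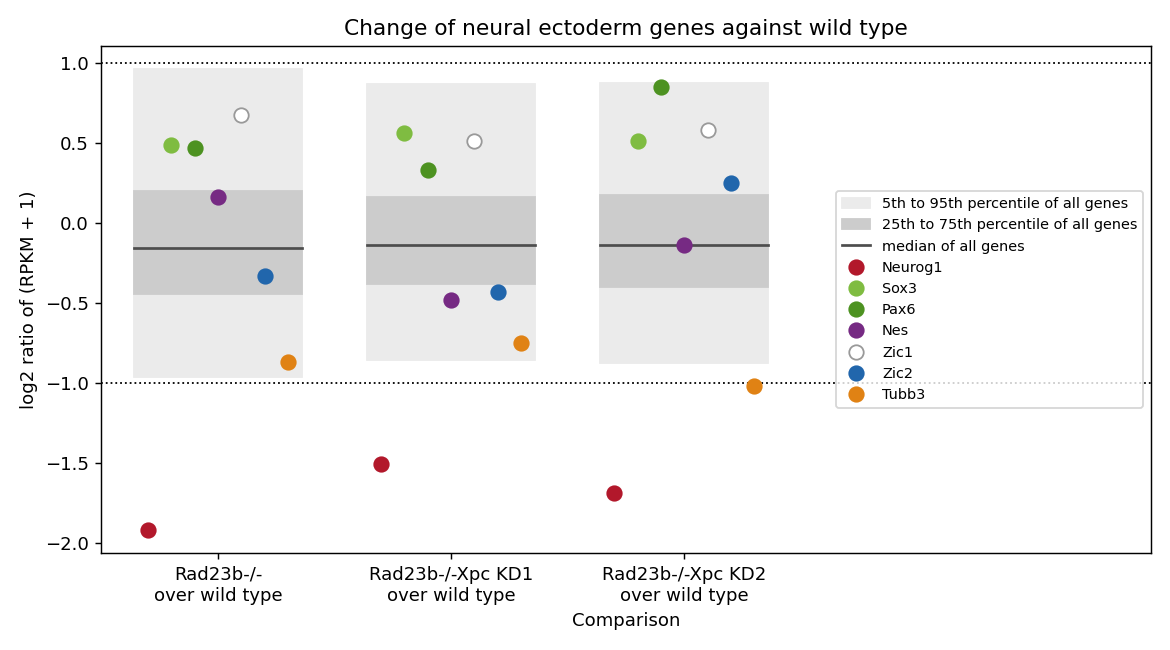
log2 ratio of RPKM + 1 for the 7 genes (points, 1 colour per gene, Zic1 open because it stayed under 1 RPKM) in Rad23b-/-, Rad23b-/-Xpc KD1 and Rad23b-/-Xpc KD2 cells, each over wild type. Grey boxes give the 25th to 75th and the 5th to 95th percentiles of all genes, with their median as a line, and dotted lines mark 2-fold. Neurog1 lies at -1.92, -1.51 and -1.69, below the 5th percentile in each comparison.

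None of the SOX and PAX progenitor factors reached the 2-fold limit. Sox3 (mm9 chrX:58144544-58146605), a SOXB1 factor of early neural progenitors that is also expressed in pluripotent cells, was at 2.53, 2.67 and 2.55 RPKM in Rad23b-/-, KD1 and KD2 cells, against 1.52 RPKM in wild type. Its 3 mutant values lay close together and above wild type, with log2 ratios of 0.48, 0.56 and 0.51, short of 2-fold, and p-values of 0.399, 0.274 and 0.325 in the authors' deposited table. Pax6, the paired-box factor of forebrain and eye progenitors, was at 4.21, 3.66 and 5.72 RPKM in Rad23b-/-, KD1 and KD2 cells, against 2.78 RPKM in wild type. All 3 mutants were above wild type, at 151.5%, 135.2% and 209.6% of it in the same table (log2 ratios 0.46, 0.33 and 0.85), while KD2 exceeded KD1 by 0.52, more than the scatter given above. Its p-values were 0.978, 0.981 and 0.956 in the authors' deposited table. Pax6 is listed on coordinates shared by 5 genes (mm9 chr2:105376236-105744721), of which 3 were above 0 in wild type with 3 distinct values.

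The ZIC zinc-finger factors differed among themselves. Zic2 (mm9 chr14:122874603-122879074), which is expressed in both stem cells and neural plate, was at 13.97 RPKM in Rad23b-/- cells, 12.68 in KD1 and 21.08 in KD2, against 17.9 in wild type. The mutants lay on both sides of wild type (log2 ratios -0.34, -0.43 and 0.25), and KD2 exceeded KD1 by 0.68. Zic1 was at 0.632, 0.455 and 0.528 RPKM in the mutants, against 0.0234 RPKM in wild type. All 3 mutant values were the higher, but every library was under 1 RPKM and Zic1 passed no count. Its log2 ratios of RPKM + 1 were 0.67, 0.51 and 0.58, with p-values of 0.115, 0.005 and 0.202 in the authors' deposited table. It shares its listed coordinates (mm9 chr9:91252895-91284186) with Zic4.

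Relatives of these factors are set beside them because each family shares its DNA-binding domain. Zic5, the neighbour of Zic2, was at 9.36, 11.2 and 11.3 RPKM in Rad23b-/-, KD1 and KD2 cells and 15.1 RPKM in wild type (log2 ratios -0.64, -0.37 and -0.37). Zic4 was under 1 RPKM in every library. Sox2, the SOXB1 partner of OCT4, was at 122.9, 135.2 and 133.0 RPKM in the mutants, against 183.9 RPKM in wild type. Neurog2 and Neurog3 were under 1 RPKM in all 4 libraries, and Pax4 had the value read as 0 in each.

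Nes (mm9 chr3:87774999-87784373, plus strand) encodes nestin, the intermediate filament of neural progenitors. It was at 4.48, 2.43 and 3.39 RPKM in Rad23b-/-, KD1 and KD2 cells, against 3.90 RPKM in wild type. The wild-type value lay within the range of the mutants. The log2 ratios were 0.16, -0.48 and -0.14, with p-values of 0.719, 0.224 and 0.726 in the authors' deposited table, and KD2 exceeded KD1 by 0.35. The Nes ratios ranked at the 73.2, 17.7 and 50.3 percentile of all genes in Rad23b-/-, KD1 and KD2 cells.

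Tubb3 encodes beta-III tubulin, the neuronal beta-tubulin. It was at 23.7 RPKM in Rad23b-/- cells, 25.1 in KD1 and 20.9 in KD2, against 44.2 in wild-type cells. All 3 mutants were the lower, at 53.7%, 58.3% and 48.0% of wild type, with log2 ratios of -0.87, -0.76 and -1.02. The last of these passes 2-fold narrowly, and the p-values in the authors' deposited table were 0.905, 0.878 and 0.876. Tubb3 is listed on 4.435 Mb of chromosome 8 (mm9 chr8:122434259-126869624) shared with other genes, 156 in all. Of these 86 were above 0 in wild type with 86 distinct values, so the RPKM is not one value given to the whole stretch.

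Of the other beta-tubulin genes, Tubb2b, Tubb2a and Tubb5 were lower in all 3 mutants as well. Tubb2b, expressed in migrating neurons and in stem cells, was at 46.7, 77.6 and 59.2 RPKM in Rad23b-/-, KD1 and KD2 cells, against 176.7 RPKM in wild type. Its log2 ratios of -1.90, -1.14 and -1.54 passed 2-fold in each, with p-values of 0, 0.007 and 0.001 in the authors' deposited table. Tubb2a was at 21.2, 29.9 and 22.4 RPKM in the mutants, against 59.8 RPKM in wild type (log2 ratios -1.45, -0.94 and -1.35). Tubb5, the most abundant beta-tubulin here, was at 632.8, 886.1 and 684.6 RPKM in the mutants, against 1242 RPKM in wild type (log2 ratios -0.97, -0.45 and -0.83). Tubb6 ran the other way, at 63.9, 69.0 and 57.0 RPKM in the mutants and 44.8 RPKM in wild type (log2 ratios 0.50, 0.65 and 0.36). Tubb1, the beta-tubulin of platelets, was at 0.463, 0.161 and 0.420 RPKM in the mutants and 0.167 RPKM in wild type. Beta-tubulin genes are near-identical in long stretches, so reads could be split between them, and their single values are uncertain. Of the 13 paralogues looked for across the families, 11 had a row.

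**Figure D3:**
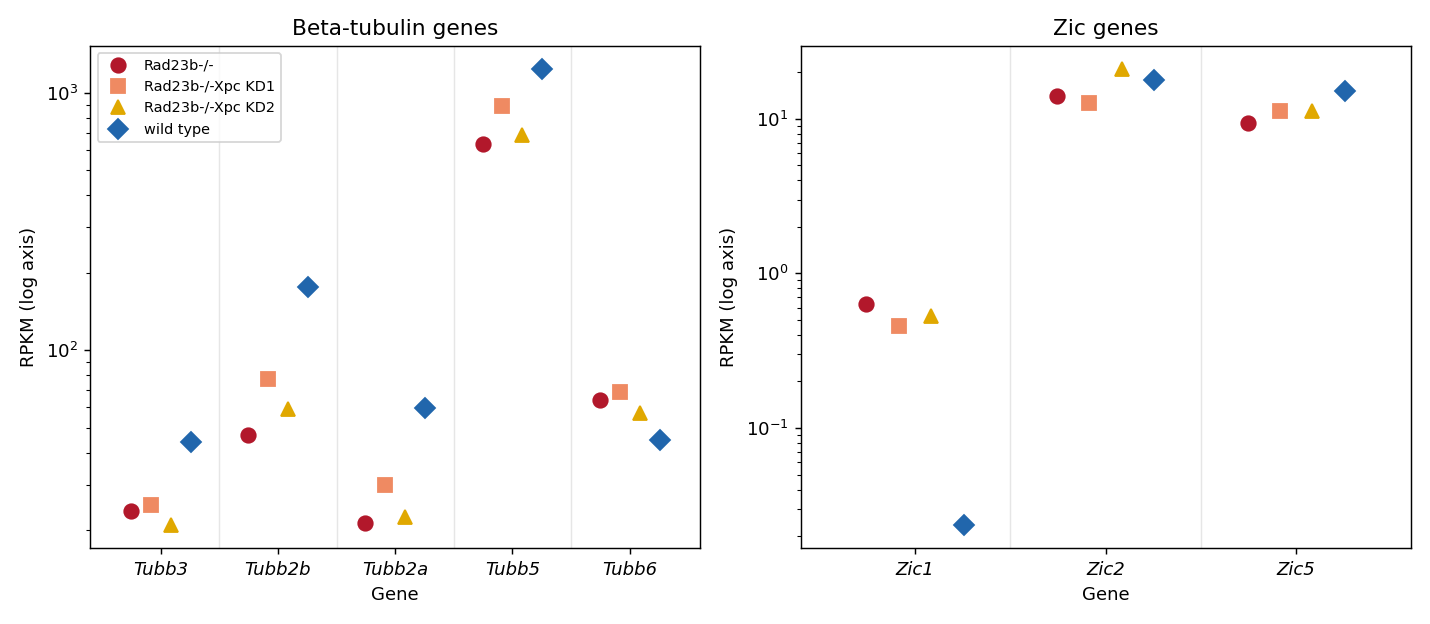
RPKM (log axis) of beta-tubulin genes (left) and Zic genes (right), with 1 point per library: Rad23b-/- (circle), Rad23b-/-Xpc KD1 (square), Rad23b-/-Xpc KD2 (triangle) and wild type (diamond). Tubb3, Tubb2b, Tubb2a and Tubb5 lie lower in all 3 mutants than in wild type, as does Zic5, and Tubb6 lies higher.

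RAD23B regions were compared between the wild-type replicates, and a region was called shared when it overlapped a region of the other list. Their folds and p-values are the authors' and serve to describe a region within its list. Of the 7 members, 6 had a shared region, beside 57.5% of all genes. On coordinates of their own stood 4 members, of which 3 (Neurog1, Nes and Zic2) had one, beside 42.7% of such genes. That share was 77% where wild-type RPKM was at least 1, as for these 4, and 23.4% where it was under 1. In the same 3 members a shared region lay over the listed start, beside 60.3% of genes at 1 RPKM or more on coordinates of their own. The members' counts lay near the shares of expressed genes in general.

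At Neurog1 the replicate 1 region (mm9 chr13:56352754-56354033) contained 395 RAD23B reads and 256 IgG reads, an authors' fold of 1.47. The replicate 2 region (mm9 chr13:56353375-56353986) held 115 RAD23B and 71 IgG reads, a fold of 1.61. Measured from the listed start they ran from -509 to 770 bp and from -462 to 149 bp, negative values lying before the gene. These folds were low within their lists, at the 13.8 and 15.0 percentile. Of the 3 members with a region over the start, the 1 with the lowest RNA ratios had the lowest folds there. Among the relatives Tubb2b, also at least 2-fold lower in all 3 mutants, had higher folds over its start (2.43 and 2.17). No relation between fold and RNA is read from these genes.

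At Nes there were 2 regions in each replicate, all shared. Over the start, replicate 1 (mm9 chr3:87774686-87775442) had 271 RAD23B and 138 IgG reads (fold 1.87), and replicate 2 had 145 and 68 (fold 2.12), near the middle of their lists (percentiles 49.4 and 51.7). The other region, 3.10 to 4.09 kb inside the gene (mm9 chr3:87778100-87779087), drew 519 reads of RAD23B and 148 of IgG in replicate 1 (fold 3.33) and 280 and 60 in replicate 2 (fold 4.61), at the 92.0 and 96.2 percentile. An intron of nestin is known to carry an enhancer active in neural progenitors. Whether this region lies in an exon or an intron was not determined, since no annotation of this build was used.

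At Zic2 there were 6 regions in replicate 1 and 3 in replicate 2, of which 3 were shared. The widest covered the start, from -1.49 to 0.13 kb (mm9 chr14:122873117-122874733), with 531 RAD23B and 224 IgG reads in replicate 1 (fold 2.25) and 281 and 135 in replicate 2 (fold 2.07). The others lay 3.16 kb inside the gene (folds 1.37 and 1.77) and beyond its end (folds 2.21 and 2.12). Sox3 had no region in either list within 5 kb, and the nearest lay 118 kb away in both. Sox3 was above 1 RPKM in all 4 RNA libraries.

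**Figure D4:**
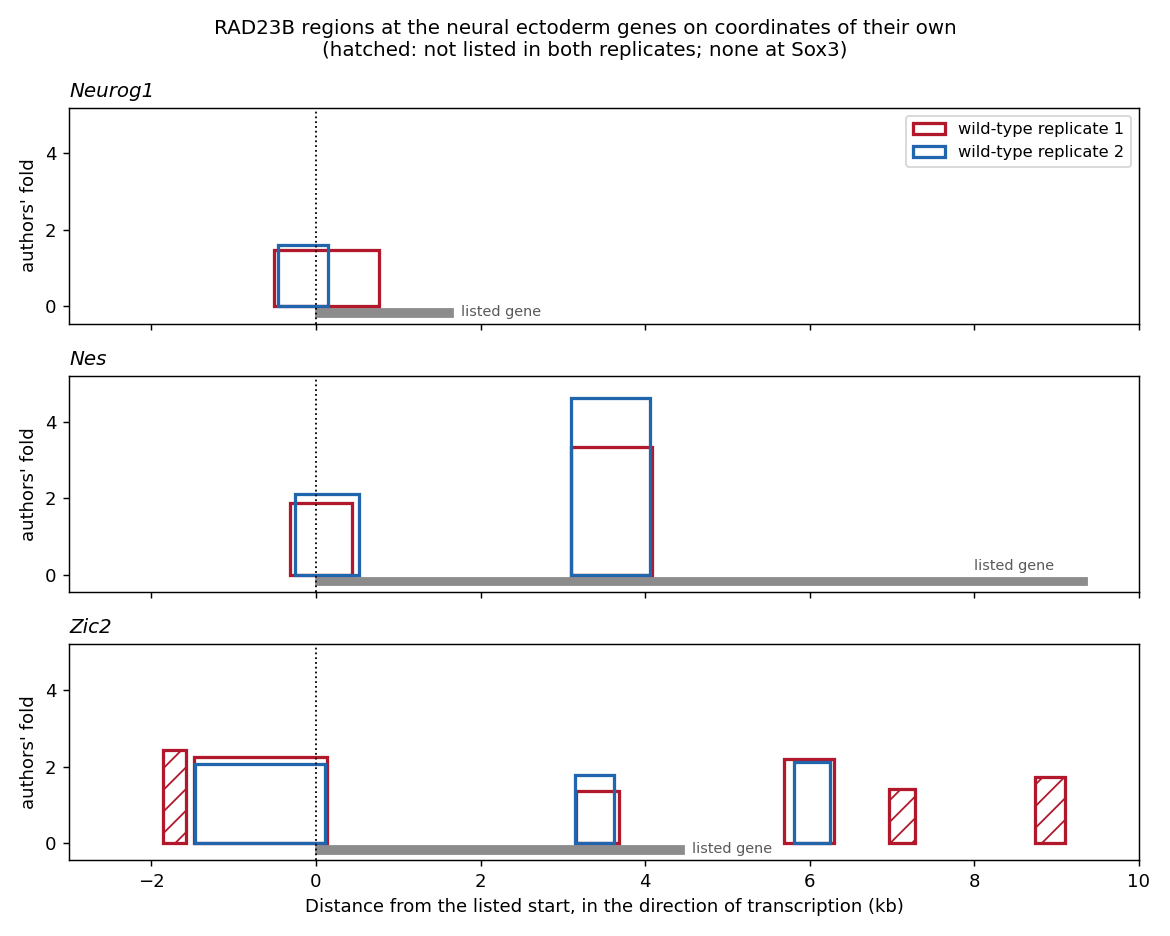
RAD23B regions of wild-type replicates 1 and 2 at Neurog1, Nes and Zic2, by distance from the listed start (kb, in the direction of transcription) and the authors' fold over IgG (height), with the listed gene as a grey bar and regions of 1 replicate hatched. The highest box is the Nes region 3.10 kb inside the gene, with folds of 3.33 and 4.61, while the Neurog1 boxes reach 1.47 and 1.61.

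For members on shared coordinates a region cannot be given to 1 gene. The Pax6 stretch of 368.5 kb held 21 regions in replicate 1 and 12 in replicate 2, of which 12 were shared in each. Its strongest (mm9 chr2:105531253-105531992) drew 344 reads of RAD23B and 59 of IgG in replicate 1 and 165 and 31 in replicate 2, with folds of 5.49 and 5.19. The stretch of Zic1 and Zic4 had 1 shared region (mm9 chr9:91256529-91257086) with 160 RAD23B and 58 IgG reads in replicate 1 and 79 and 20 in replicate 2 (folds 2.60 and 3.81), although Zic1 and Zic4 were all but silent. The stretch that includes Tubb3 held 476 and 405 regions, 107 and 91.1 per Mb.

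The Xpc-/- list held no region within 5 kb of Neurog1, Sox3, Pax6, Nes, Zic1 or Zic2. The closest lay 330 kb from Neurog1, 551 kb from Nes and more than 1 Mb from the other 4. The stretch that includes Tubb3 held 59, on the chromosome with 477 of the list's 828 regions. In this list the deposited fold tracks IgG-headed reads divided by RAD23B-headed reads, and each of the 828 regions has the larger count under the IgG heading, so its regions are not read as RAD23B binding. The list comes from 1 library with no replicate. Its regions cover 0.206 Mb, against 35.6 and 22.9 Mb in the lists of wild-type replicates 1 and 2. The share of all genes with a region in the Xpc-/- list was not counted, so the lack of one at these members is not read as a loss of RAD23B.

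Wider lists of neural genes were counted at the same 2-fold limit, to be read against the percentages of all genes above. Neural progenitor factors had 2 lower and 0 higher of 17 genes in Rad23b-/- cells, and 2 lower and 0 higher of 18 in KD1 and in KD2 cells, among the genes reported here. Their median ratios were -0.13, 0.12 and 0.17. The 2 lower genes were Hesx1 and Gli2 in all 3 mutants. Hesx1, a homeobox repressor of the anterior neural plate that is also expressed in pluripotent cells, was at 3.26, 2.61 and 2.64 RPKM in the mutants, against 10.8 RPKM in wild type (log2 ratios -1.46, -1.67 and -1.67). Gli2, an effector of Hedgehog signalling, was at 2.28, 2.92 and 2.27 RPKM in the mutants, against 7.02 RPKM in wild type. Meis1, a low gene of this list, was at 340.1%, 281.2% and 312.8% of wild-type RPKM in Rad23b-/-, KD1 and KD2 cells. On the scale of RPKM + 1 it stayed short of 2-fold higher (log2 ratios 0.87, 0.69 and 0.79).

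Proneural and Notch genes had 2, 1 and 1 lower and 0, 0 and 1 higher of 14 in Rad23b-/-, KD1 and KD2 cells, with medians of -0.13, -0.08 and 0.00. Neurog1 was the 1 gene of this list counted in every mutant. Progenitor filament and radial glia genes had 1 lower of 8, 1 lower of 9 and 0 lower of 8, with 0 higher, and medians of -0.32, -0.27 and -0.21. Neuronal genes had 3, 1 and 3 lower of 17 and 0 higher, with medians of -0.46, -0.21 and -0.16, and Tubb2b was the 1 gene counted in each mutant. Stmn3, a low gene of the stathmin family, was at 30.1%, 45.8% and 49.2% of wild-type RPKM but past 2-fold of RPKM + 1 in Rad23b-/- cells only. Stmn2, a tubulin-binding protein of growing axons counted lower in Rad23b-/- cells, was at 109.3, 181.0 and 142.8 RPKM in Rad23b-/-, KD1 and KD2 cells, against 223.6 RPKM in wild type. REST, the repressor of neuronal genes in other cells, was at 52.4, 48.4 and 46.1 RPKM in the mutants and 54.0 RPKM in wild type, and 0 of 9 genes of REST and its cofactors passed 2-fold in any mutant. Markers of astrocytes and oligodendrocytes summed to 2.94, 2.70 and 3.90 RPKM over 4 genes in the mutants and 3.23 in wild type. Those of neural crest summed to 3.91, 4.28 and 4.13 RPKM over 3 genes in the mutants, against 5.42 in wild type, most of it Foxd3. The other markers of that list were low and above wild type in each mutant, Sox10 at 0.91, 0.37 and 0.53 RPKM, against 0.08 in wild type, and Tfap2a at 0.36, 0.60 and 0.68 RPKM, against 0.27.

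**Figure D5:**
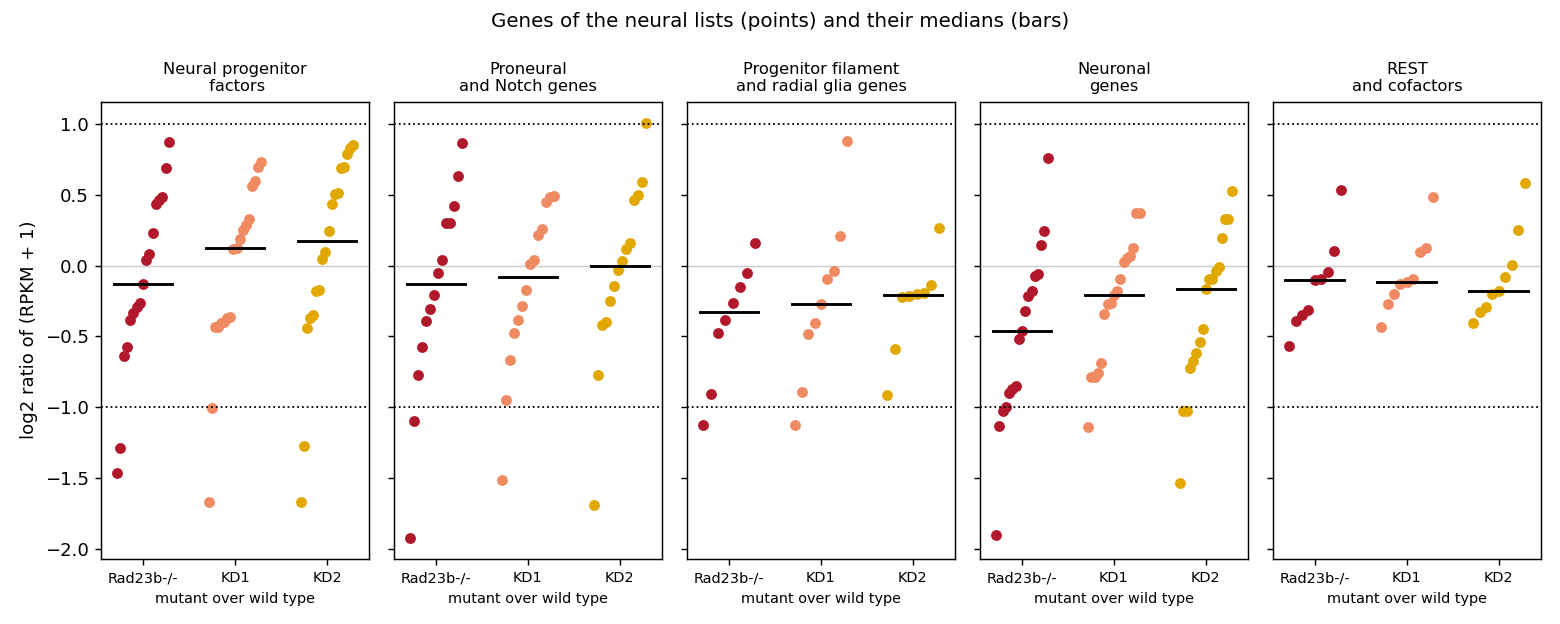
log2 ratio of RPKM + 1 over wild type for the genes of each list that reached 1 RPKM in the mutant or wild type (points, sorted within a column) in Rad23b-/-, KD1 and KD2 cells, with the list's median as a bar and dotted lines at 2-fold. Most genes lie between the dotted lines, and the lowest point in the proneural and Notch panel is Neurog1 in each mutant.

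The genes most like each member in level over the 4 libraries were sought among those on coordinates of their own, by Euclidean distance on log2 of RPKM + 1. Nearest to Neurog1 were St8sia6, which encodes a sialyltransferase (distance 0.28; 0.505, 0.629 and 0.500 RPKM in the mutants, against 3.68 in wild type), and Pga5 (distance 0.36). Nearest to Tubb3 were Rnf19b (0.13) and Tubg1, which encodes gamma-tubulin (0.14). Nearest to Nes were Prss50 (0.13) and Stambp (0.18), to Pax6 Gm7846 (0.16) and Rab3d (0.17), to Sox3 Gm9873 (0.15) and Gm15250 (0.16), and to Zic2 2810429I04Rik (0.26) and Ankmy2 (0.27). Zic1 was too low to be matched. The pluripotency genes that were lower in the same libraries are given above, and their part in the lower Neurog1 and tubulin values was not tested.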

How the data were processed

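Poly-A RNA was sequenced as single-end reads of 50 bases, per the labels, and the submitters' processing notes name TopHat2 2.0.6, Cufflinks 2.0.2, Cuffdiff and mm9 for the deposited RPKM values. The authors scaled RPKM separately in each table (wild-type values of the Rad23b-/- table were 1.026 and 1.017 times those in the KD1 and KD2 tables), so ratios used the same table; differences between the knockdowns were rescaled by wild type. Exactly 1 was read as 0, since 13841 wild-type values are exactly 1. Of 36658 lines, 72 without a gene symbol were dropped, with 0.00144% of the wild-type RPKM.

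Regions were called with Partek, per the submitters' processing notes; the aligner is not given in the sources used here, nor are the calling thresholds. The lists hold, per the file headers, counts of RAD23B and IgG reads, RPM, the authors' fold (a ratio) and p-values. The deposited RPM is the maximum over the library's reads, which gave the depths. The replicate 2 headings repeat replicate 1 names, and its values differ. Precision of single values is limited by 1 RNA library per group; read counts carry counting error only.

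Computations used Python 3.11.15, numpy 2.4.6, pandas 2.3.3, scipy 1.17.1 and matplotlib 3.10.9, with a pseudocount of 1, a minimum RPKM of 1, a 2-fold limit and a 5 kb window, and were tested on simulated data. No test was run, having no replicates. Named genes were all members, their listed paralogues, and list genes past 2-fold the same way in all 3 mutants. Stmn2, Nanog, Esrrb, Klf4, Pou5f1, Postn, Rest and Stmn3 were named as checks or after their values were seen. So were Meis1, Cdx2, Gata3, Krt8, Krt18, Sox10, Tfap2a and Foxd3. A listed gene is not reported here and enters no list count. The members and lists were chosen with earlier results of these data known. Alternatives tried were the pseudocount, filter, centring, fold, window, overlap, replicates and an RPKM of exactly 1 kept as 1.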

Additional observations from a re-analysis of the deposited data

How the results depend on the processing

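Neurog1 stayed at least 2-fold lower in all 3 mutants after centring on the median of all genes (log2 ratios -1.76, -1.37 and -1.55). A pseudocount of 0.1 gave -3.17, -2.23 and -2.60, but a smaller pseudocount can only enlarge its fold. Without a filter Neurog1 keeps the same ratios, so neither of these settings could have removed it. With an RPKM of at least 5 Neurog1 no longer enters. The members counted lower then become 0, 0 and 1 (Rad23b-/-, KD1, KD2), with a median ratio of -0.60 in Rad23b-/- cells. Without a filter, which adds Zic1, that median is 0.16. At 1.5-fold the members lower are 2 in Rad23b-/- and 2 in KD1 cells, and those higher are 1 in KD2 cells. A pseudocount of 0.1 also gives 1 higher in KD2 cells (Pax6). Tubb3 in KD2 cells is not counted after centring or among genes on coordinates of their own, and 1 lower member is left in each case. The pseudocount of 0.1 also moved the ratios of Zic1 (2.57, 2.18 and 2.35) and of Sox3 in KD1 and KD2 cells (0.80 and 0.73). Of 63 single ratios recomputed, 8 moved by more than the knockdown scatter of 0.22, all of them under that pseudocount. Centring shifts every ratio by 0.16, 0.14 or 0.14 (Rad23b-/-, KD1, KD2), and no member had an RPKM of exactly 1. Only the pseudocount could thus move a ratio past that scatter, and the count of 63 is no measure of stability. Keeping an RPKM of exactly 1 as 1 changed no member's ratio. These settings could not change the sign of a ratio at least 2-fold from wild type. Centring turned the small ratio of Nes in KD2 cells from -0.14 to 0.00.

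Members with a RAD23B region were 6 with replicate 1 or replicate 2 left out, beside 58.1% and 63.7% of all genes. They were also 6 with windows of 0, 1 and 10 kb, beside 51.6%, 53.4% and 61.1% of all genes. Each of the 6 has a shared region inside its listed locus, so these settings could not lower the count. The members were 5 when the authors' fold had to reach 2 or the overlap 0.5 of each region, and both leave out Neurog1. The fold limit puts 31.7% of all genes in that class, and the overlap limit 56.0%. Among genes on coordinates of their own the members are 3, beside 42.7% of such genes, and 0 have an Xpc-/- region. These restrictions were chosen after seeing the data. The share of all genes with an Xpc-/- region was not counted. No paired analysis was possible because no result comes from a test and the IgG libraries that share replicate numbers with RAD23B have no list of their own.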

Other observations

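Among relatives of the members on coordinates of their own, Zic5, Tubb2a, Tubb2b, Tubb5 and Tubb6, all above 1 RPKM in every library, had shared RAD23B regions, and Pax4 and Tubb1, both under 1 RPKM, had none within 5 kb. Neurog2, the other neurogenin of the dorsal telencephalon, was under 1 RPKM in every library, yet 2 regions lay within 5 kb of it in each wild-type replicate (folds of up to 1.63 in replicate 1 and 1.72 in replicate 2). The coordinates of Neurog3, a factor of endocrine pancreas, are shared by 2 genes and held 5 shared regions, up to folds of 5.42 and 5.43, with 0.156, 0.158 and 0.155 RPKM in Rad23b-/-, KD1 and KD2 cells, against 0.541 RPKM in wild type. Zic5 had shared regions of up to 2.69 and 5.00. Tubb2b and Tubb2a, both lower in the mutants, had a region over the start, with folds of 2.43 and 2.17 at Tubb2b and 1.65 and 1.69 at Tubb2a. Tubb6, higher in all 3 mutants, had one as well (1.69 and 1.95), as did Tubb5 and Zic5. A shared region lay over the start of 60.3% of genes at 1 RPKM or more on coordinates of their own. These values are given as descriptions with no test.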
